A study of Homo sapiens with 6 samples.

Results

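The L6 family is a small group of cell-surface proteins, named after the tumour antigen L6 (now TM4SF1), whose chains cross the membrane several times and resemble the larger tetraspanin family in shape but not in sequence. Its 6 genes TM4SF1, TM4SF4, TM4SF5, TM4SF18, TM4SF19 and TM4SF20 were followed among 25141 named genes on a whole-transcript array, where each value is the log2 signal of a transcript cluster, the set of probes for 1 transcribed locus. They were taken by gene symbol. Each gene had 1 cluster carrying its symbol, so the rule of keeping the brightest cluster per gene removed nothing. The family was chosen by the measured difference of TM4SF20 between the groups compared here. For that reason the differences of its members are given as a description, without p-values.

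All arrays measured A549, an established human lung adenocarcinoma line. The control group was A549 stably expressing a lentiviral control shRNA (3 arrays) and the other was A549 stably expressing a lentiviral shRNA targeting S100A4 (3 arrays), a calcium-binding protein of the S100 family that has been linked to metastasis. Cells were kept in medium containing 10% serum until about 70% confluent and fed on the day before harvest, for 3 days by one label and 2 days by another. The labels name 1 shRNA per group and call the arrays biological replicates, and the sources used here do not give whether each line was a clone or a pool. Differences between the groups therefore cannot be told apart from differences between 2 lines or 2 shRNA constructs, and the spread is that between these samples.

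The target checked the labels. S100A4 read 7.57, 7.12 and 7.18 on the control arrays and 5.74, 5.51 and 5.44 with S100A4 shRNA, a log2 difference of -1.73 (limma SE 0.13, adjusted p = 0.000453). The two-sided exact permutation test of the 6 values gave p = 0.1, which is the lowest possible with 3 against 3. Across genes, r was 0.9966 to 0.9978 between arrays of 1 group and 0.9926 to 0.9945 between arrays of different groups. The array's 646 negative control probe sets (Negative Housekeeping in the file's annotation) had a median of 4.20 and a 95th percentile of 6.86 (log2 signal, mean over the 6 arrays). Those control medians were 0.064 lower per array with S100A4 shRNA, and those of the positive control probe sets (Positive Housekeeping) were 0.23 lower. Of 10 epithelial markers 5 lay above that percentile, among them the keratins KRT7, KRT8 and KRT18 at 14.58 or more in both groups, while EPCAM (5.86 and 6.07), CLDN4, CLDN7, MUC1 and KRT19 lay below it. The endothelial markers PECAM1 (3.24 and 3.28) and CDH5 (4.35 and 4.25) and the leukocyte marker PTPRC (3.83 and 3.74) lay near or below the negative control median (control and S100A4 shRNA means). Other markers of their lists lay higher. By mean over the arrays, 7 of 13 endothelial and 6 of 15 macrophage and osteoclast markers were at or below that median. ESAM read 6.33 and 5.89, and CD68 read 9.28 and 10.36.

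L6 proteins act mainly by organising other membrane proteins. TM4SF1 is abundant in many carcinomas and in endothelium, TM4SF5 is known from liver cancer and binds integrins and growth factor receptors, and TM4SF4 was described in intestine and liver. TM4SF20 sits in the endoplasmic reticulum membrane, where its orientation depends on ceramide and decides whether the transcription factor precursor CREB3L1 is cut. TM4SF19 is known from osteoclasts and macrophages, and TM4SF18 is the least studied of the family. In bulk RNA, fewer cells expressing a gene and less RNA of that gene per cell cannot be told apart.

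TM4SF20 differed far more than the rest of its family. On the control arrays it read 6.68, 6.29 and 6.64, and with S100A4 shRNA 9.03, 8.76 and 8.70. Every S100A4 shRNA array was above every control array, and the lowest of the first lay 2.02 log2 units above the highest of the second. Group means were 6.54 ± 0.21 and 8.83 ± 0.17 (log2 signal, SD, n = 3 each). The log2 difference of 2.29 (limma SE 0.13) is a 4.90-fold higher signal and ranked 3 among rises of the 25141 genes. Control arrays were all below the 95th percentile of the negative controls, and S100A4 shRNA arrays were all above it. The fold may therefore be understated by background in the control signal, which was not tested. In the authors' deposited table, a separate summary of the same arrays, the ratio of S100A4 shRNA to control was 2.39 for TM4SF20, a log2 difference of 1.26 that is 0.549 of the one above.

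The file's annotation places TM4SF20 (RefSeq NM_024795) at 2q36.3. The 250 bases before its RefSeq start site are shown because it is the member that differed most. They are chr2:227379307-227379556 on the minus strand of GRCh38.p14, printed 5′ to 3′ as transcribed, with matches to the motifs named below in capitals:

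TM4SF20: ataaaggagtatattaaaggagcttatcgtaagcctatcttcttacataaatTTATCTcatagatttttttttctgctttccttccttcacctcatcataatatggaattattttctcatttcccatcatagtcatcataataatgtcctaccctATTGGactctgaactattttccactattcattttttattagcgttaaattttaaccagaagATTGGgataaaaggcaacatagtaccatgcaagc

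This stretch is poor in G and C, at 31.2% against a median of 58.0% over 35116 RefSeq promoters, and only 2.16% of them are lower. The capitals mark 2 copies of the CCAAT box (CCAAT, read on the opposite strand, 30 to 34 and 91 to 95 bases upstream of the start) and 1 GATA motif (AGATAA, on the opposite strand, 193 to 198 bases upstream). CCAAT on either strand is found in 32% of all promoters of this length and AGATAA in 9.17%. The other motifs searched on both strands, namely TATAAA of the TATA box, GGGCGG of the GC box, TGANTCA of AP-1, CATTCC of TEAD and TTTATNG of CDX factors, had no match in this window. None of these motifs overlaps another here. A match describes the letters only and says nothing of what binds.

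**Figure D1:**
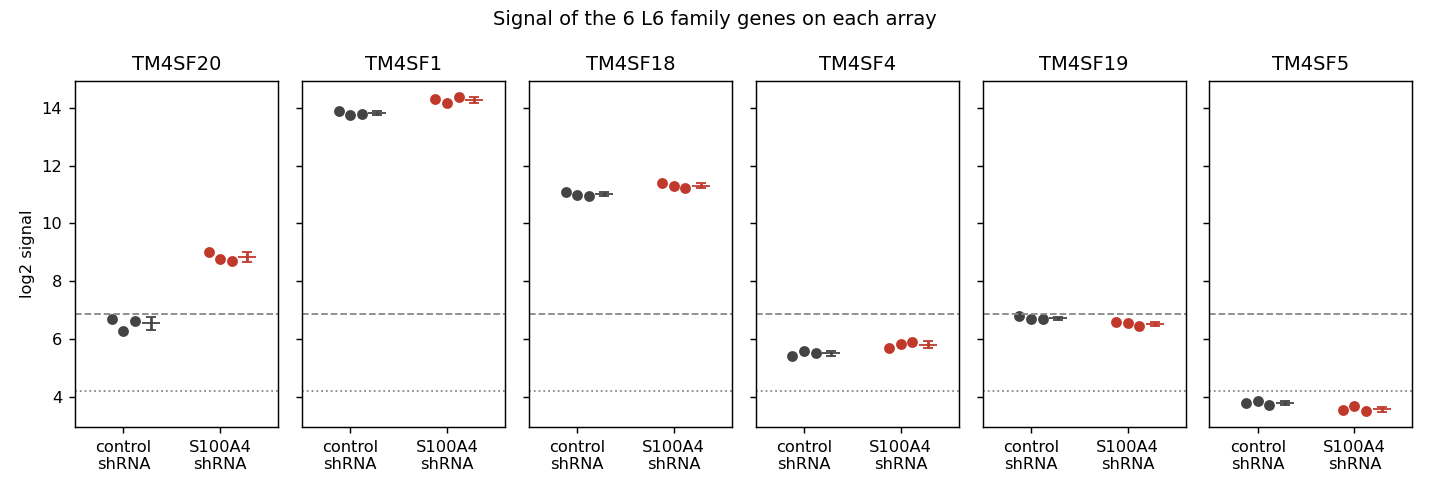
Log2 signal (vertical axis) of the 6 L6 family genes on each of the 3 control shRNA arrays (grey points) and 3 S100A4 shRNA arrays (red points), with the group mean and SD beside them; the dashed line is the 95th percentile of the negative controls (6.86) and the dotted line their median (4.20), both over the mean of 6 arrays. TM4SF20 moves from below to above the dashed line, TM4SF1 and TM4SF18 lie far above it in both groups, and TM4SF4, TM4SF19 and TM4SF5 stay below it.

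TM4SF1, the family's founding antigen, was bright in both groups and modestly higher with S100A4 shRNA. Its control arrays read 13.90, 13.76 and 13.81 and its S100A4 shRNA arrays 14.31, 14.18 and 14.38. The groups did not overlap, with 0.28 log2 units between them. Means of 13.82 ± 0.07 and 14.29 ± 0.10 (log2 signal, SD, n = 3 each) differed by 0.47 (limma SE 0.07, 1.38-fold), and the authors' deposited table gives a ratio of 1.29 for TM4SF1. Its signal was above that of all 646 negative control probe sets.

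TM4SF18, the neighbour of TM4SF1 on chromosome 3, followed the same direction by a smaller step. Control arrays read 11.09, 10.97 and 10.96 and S100A4 shRNA arrays 11.39, 11.30 and 11.22, so the groups were 0.12 apart. The means of 11.01 ± 0.07 and 11.30 ± 0.09 (log2 signal, SD, n = 3 each) differed by 0.29 (limma SE 0.07, 1.22-fold). TM4SF18 is the only member for which the authors' deposited table has the larger log2 difference, 0.32. It too lay above all 646 negative controls.

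TM4SF4 was measured at a level where the array separates signal from background poorly. Its values were 5.42, 5.59 and 5.51 on control arrays against 5.68, 5.82 and 5.91 on S100A4 shRNA arrays, and 83.1% of the negative controls were dimmer. The S100A4 shRNA arrays were all higher, by a margin of 0.09 between the nearest arrays. The difference of means was 0.30 (limma SE 0.08, 1.23-fold), and the log2 difference in the authors' deposited table was 0.16.

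TM4SF19 and TM4SF5 were the members with lower values under S100A4 shRNA. TM4SF19 read 6.78, 6.69 and 6.69 on control arrays and 6.58, 6.54 and 6.43 on S100A4 shRNA arrays, a difference of -0.20 (limma SE 0.07) with no overlap. TM4SF5 read 3.79, 3.84 and 3.71 against 3.52, 3.66 and 3.51, a difference of -0.22 (limma SE 0.07), again without overlap. TM4SF5 was dimmer than the negative control median on every array, and only 30.5% of negative controls were below it, so these values give no evidence that its RNA was measured. Genes below the negative control median, 5702 in number, were lower with S100A4 shRNA in 75.2% of cases, with a median difference of -0.07. Their 5th and 95th percentiles were -0.28 and 0.14. The 646 negative control probe sets themselves were lower in 51.5% of cases, with a median of -0.04 and a wider spread (5th and 95th percentiles -1.09 and 1.06). The positive control probe sets were lower by 0.23, about as much as TM4SF5 and TM4SF19, and their part in these 2 values was not tested. Both had a log2 difference of -0.13 in the authors' deposited table.

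All 6 members were thus without overlap between the groups, 4 higher and 2 lower, where 32.8% of all genes had no overlap (14.3% higher and 18.5% lower). In the limma fit across all genes 3 of the 6 passed an adjusted p under 0.05, namely TM4SF20, TM4SF1 and TM4SF18, where 11.6% of all genes did (6.08% higher and 5.49% lower). With the authors' deposited p-values, adjusted by Benjamini-Hochberg, 1 member passed (TM4SF20), where 2.12% of all genes did. The call of TM4SF18 was lost without control array 2 or 3 or any S100A4 shRNA array (5 of 6), while TM4SF20 and TM4SF1 were called in all 6. TM4SF4, not among the 3, was called without S100A4 shRNA array 1. Because this contrast drew attention to the family, nothing is read from these counts. The median log2 difference of the members was 0.29, beside -0.03 for all genes. Apart from TM4SF20, the size of the members' differences lay between 0.20 and 0.47, which is 1.15-fold to 1.38-fold. Leaving out 1 array at a time kept each member's direction, with TM4SF20 between 2.17 and 2.37 and TM4SF1 between 0.43 and 0.52.

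**Figure D2:**
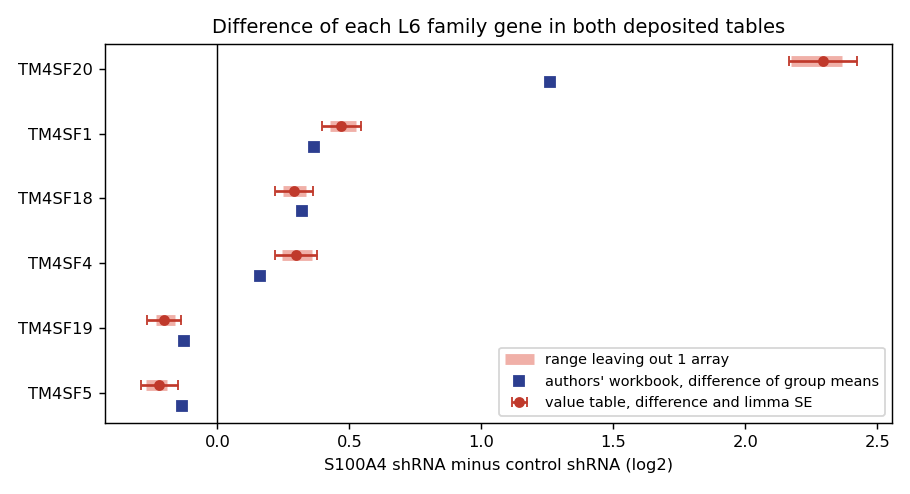
S100A4 shRNA minus control shRNA on the log2 scale (horizontal axis) for each L6 family gene: red points with bars are the difference and limma SE from the value table, pale bands the range when any 1 array is left out, and blue squares the difference of the authors' deposited group means. TM4SF20 stands at 2.29 and 1.26 in the 2 tables, the other members lie between -0.22 and 0.47, and every member has the same sign in both.

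Clusters named after the family were read beside it. The antisense transcript TM4SF1-AS1 had overlapping groups, with 4.45, 4.92 and 4.26 on control arrays against 4.61, 4.58 and 4.79 on S100A4 shRNA arrays (difference 0.12, limma SE 0.16, adjusted p = 0.693). TM4SF19-AS1 read 4.92, 4.83 and 4.66 against 5.11, 4.94 and 5.05, a difference of 0.23 that limma did not call (SE 0.09, adjusted p = 0.141). Its sign is opposite to that of TM4SF19, and the authors' deposited table turns it to -0.04. The sources used here do not give how the array separates strands, so the gene and its antisense partner may share signal.

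The members lie at 4 places in the genome. TM4SF18, TM4SF1 and TM4SF4 follow each other on chromosome 3 in the RefSeq gene order (3q25 in the file's annotation), TM4SF19 lies elsewhere on chromosome 3 (3q29), TM4SF20 on chromosome 2 and TM4SF5 on chromosome 17 (17p13.3). For each place the 10 nearest measured protein-coding genes were compared, to see whether genes beside a member differed too.

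Around the 3q25 members, 4 of 10 neighbours were called by limma, where 11.6% of all genes were. CP, the ferroxidase ceruloplasmin of plasma, is the nearest on the TM4SF18 side and rose from 7.18 ± 0.11 to 8.41 ± 0.12 (log2 signal, SD, n = 3 each), a difference of 1.23 (limma adjusted p = 0.000362). Beyond it HPS3, a subunit of a complex for lysosome-related organelles, rose by 0.34 (limma adjusted p = 0.0238) and HLTF, a DNA-dependent ATPase of replication fork repair, by 0.40 (0.00608). HLTF, HPS3, CP, TM4SF18, TM4SF1 and TM4SF4 thus form a run of 6 consecutive measured protein-coding genes in which every S100A4 shRNA array was above every control array. Of all genes, 14.3% were higher without overlap, and how common such runs are was not tested. This run was noticed after the values were seen, and it leaves out the antisense transcript TM4SF1-AS1 beside TM4SF4, whose groups overlapped. It ends at WWTR1, the YAP partner TAZ, on the TM4SF4 side (0.03, limma adjusted p = 0.85) and at GYG1 on the other (-0.22, limma adjusted p = 0.0663). The other called neighbour, ANKUB1, read 4.33 with control shRNA and 3.59 with S100A4 shRNA (limma adjusted p = 0.0102). Its mean over the arrays lies below the negative control median, and only 41.2% of negative controls were dimmer. Control arrays 2 and 3 (4.49 and 4.48) were above that median and the other arrays below it. All lay within the range of the negative controls, so these values give no evidence that its RNA was measured. The call of HPS3 was lost without control array 2 or 3 or S100A4 shRNA array 1 or 3 (limma adjusted p up to 0.0935). The authors' p-values after Benjamini-Hochberg adjustment called 1 of the 10 neighbours. By them HLTF, HPS3 and ANKUB1 were not called (adjusted p = 0.0629, 0.0925 and 0.169).

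The neighbours of the other members were compared in the same way, again beside 11.6% of all genes called. Counts of 0 or 1 in 10 are near that share, so nothing about these places is read from them. Over the 40 neighbours of all members, those at 3q25 included, 12.5% were called. Around TM4SF20, limma called 0 of 10 neighbours (3 at an unadjusted p under 0.05), and the authors' p-values after Benjamini-Hochberg adjustment also gave 0. The genes on either side of TM4SF20 are MFF, a receptor for mitochondrial fission (-0.10, limma adjusted p = 0.374), and AGFG1 (0.04, adjusted p = 0.725). The smallest p-values there belonged to IRS1 (-0.22, adjusted p = 0.0932) and DAW1 (-0.18, adjusted p = 0.123). Around TM4SF19, limma again called 0 of 10 (1 at an unadjusted p under 0.05, and 1 by the authors' p-values). Its direct neighbours DYNLT2B and UBXN7 differed by 0.12 and -0.00411, and the smallest p-values were those of TFRC (-0.15, limma adjusted p = 0.166) and SMCO1 (-0.14, adjusted p = 0.201). TM4SF5 has ZMYND15 (-0.02) and VMO1 (-0.08) at its sides, neither called, and CXCL16, a transmembrane chemokine, was the 1 gene called of 10 (0.45, limma adjusted p = 0.0199), a call lost without control array 2 or 3 or S100A4 shRNA array 1 or 3 (limma adjusted p up to 0.0726).

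**Figure D3:**
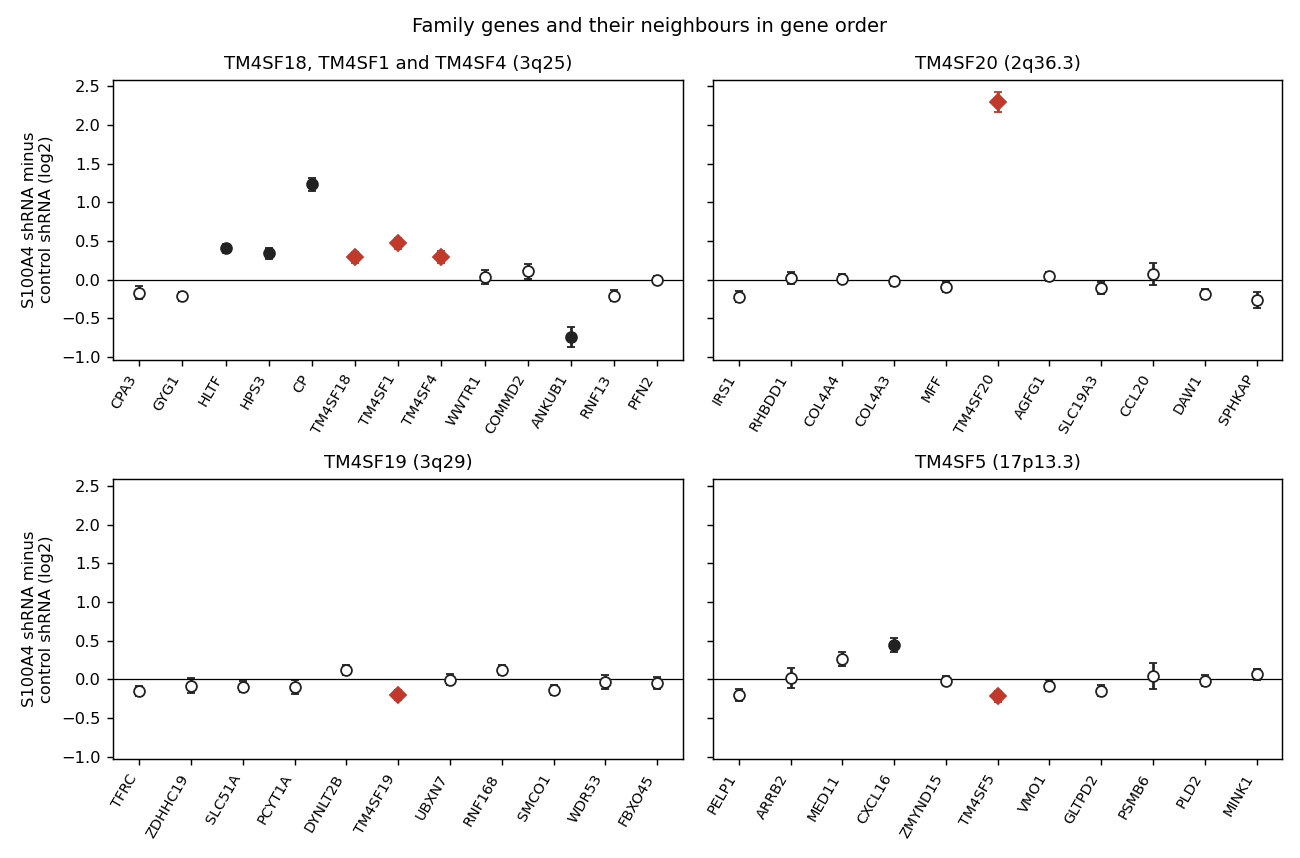
S100A4 shRNA minus control shRNA (log2, vertical axis, with limma SE) for L6 family genes (red diamonds) and their 10 nearest measured protein-coding genes (circles, filled where limma's adjusted p is under 0.05), in RefSeq gene order at even spacing. At 3q25 the 6 protein-coding genes from HLTF to TM4SF4 are all higher, a run noticed after the values were seen. TM4SF20, by whose difference the family was chosen, is at 2.29, and its neighbours lie between -0.26 and 0.07.

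The promoters of the other members were searched for the same motifs. TM4SF4 has a TATA box (TATAAA) 26 to 31 bases before its start, a motif in 10.7% of promoters, and 1 CCAAT box. TM4SF1 has 1 CCAAT box, 1 GC box (GGGCGG, in 42.6% of promoters) and 2 TEAD motifs (CATTCC, in 11.9%), and TM4SF18 has 1 TEAD motif. A CDX motif (TTTATNG, 8.93% of promoters) was found before TM4SF4 and an AP-1 motif (TGANTCA, 6.57%) before TM4SF19, and the window before TM4SF5 held none of the 7 motifs searched. The G and C share ran from 31.2% for TM4SF20 and 40.0% for TM4SF18 to 61.2% for TM4SF19.

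The genes whose profile over the 6 arrays lay nearest to that of TM4SF20 were HAS2, FGB, NAV1, P4HA3 and CDA. Nearness was the root mean square distance between log2 values after subtracting each gene's control mean. Candidates had a mean signal above the median of all genes. HAS2, a hyaluronan synthase, was the closest at 0.13, and FGB, the fibrinogen beta chain, followed at 0.18, where the median over 9717 candidate genes was 1.62. NAV1, a microtubule-associated protein, P4HA3, a collagen prolyl hydroxylase subunit, and CDA, cytidine deaminase, lay at 0.19, 0.19 and 0.20. Since the distance is set mainly by the size of the difference between the groups, these are the genes with rises of a like size, from 2.10 for CDA to 2.28 for HAS2. For TM4SF1 the nearest were CDK19, ARSD and SIDT2, for TM4SF18 AMPD3, RUFY3 and VPS28, and for TM4SF4 IRAK4, GCNT1 and NUDT1. For TM4SF19 they were LRRC46, ZNF317 and HELLS, and for TM4SF5 ANAPC4, LYRM7 and MSH3. The distances of these 15 genes were at most 0.05 log2 units. The median over the candidates was also smaller than for TM4SF20, from 0.19 for TM4SF19 to 0.34 for TM4SF1.

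**Figure D4:**
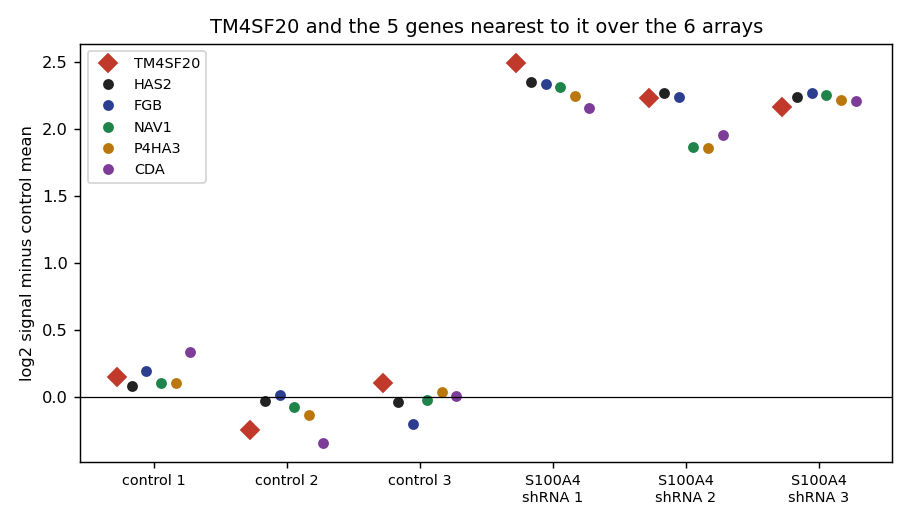
Log2 signal minus the mean of the control arrays (vertical axis) on each of the 6 arrays for TM4SF20 (red diamonds) and the 5 genes with the smallest distance to it (circles). All 6 genes lie between -0.34 and 0.34 on the control arrays and between 1.86 and 2.49 on the S100A4 shRNA arrays.

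The gene lists from here on were chosen with earlier results of these data known, so their shares called are a description. Proteins reported to work with TM4SF1 and TM4SF5 were compared as a list. Of 21 such genes 5 rose and 16 were not called, 23.8% called beside 11.6% of all genes, with a median difference of 0.19 beside -0.03. All 4 integrin chains among the 5 bind matrix: ITGA5, of the fibronectin receptor, rose by 1.597 (limma adjusted p = 0.000523), ITGA2, of a collagen receptor, by 0.94 (0.000771), ITGB1, their shared beta chain, by 0.47 (0.00329) and ITGA3, of a laminin receptor, by 0.43 (0.0163). PRKCA, the kinase reported downstream of TM4SF1, was the other. The remaining integrin chains of the list, ITGA6 (0.13, limma adjusted p = 0.282) and ITGAV (0.37, limma adjusted p = 0.0511), were not called. EGFR (-0.12), CD44 (-0.00268) and DDR1 (0.04) were not called (limma adjusted p = 0.405, 0.985 and 0.689), values chosen after they were seen. The number called was 3, and ITGA3 was not called (limma adjusted p up to 0.0649), without control array 2 or 3 or S100A4 shRNA array 1 or 3. The number was 10 after centring on the negative controls. This list is brighter than genes at large. By mean over the arrays, 3 of the 21 lay at or below the 95th percentile of the negative controls (6.86), while the median level of all genes was 5.49. Leaving out the dimmer 50% of genes gave 9 partners called, among 3549 called of the brighter 50%, whose median difference was 0.01. The part of signal level in the share called was not tested.

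Genes around the known role of TM4SF20 were compared next. Of 25 genes for cleavage of CREB3L1 and for ceramide synthesis 4 rose and 21 were not called (16.0% called beside 11.6% of all genes, median difference 0.00867 beside -0.03). By their mean over the arrays, 10 of the 25 lay at or below the 95th percentile of the negative controls. TRAM1, a translocon-associated protein, rose by 0.75 (limma adjusted p = 0.00174), SMPD1, the acid sphingomyelinase that releases ceramide, by 0.69 (0.011, in both groups below the 95th percentile of the negative controls), MBTPS1, the site-1 protease that cuts CREB3L1, by 0.44 (0.0111) and KDSR, a reductase of ceramide synthesis, by 0.28 (0.0259). CREB3L1 itself read 5.47 with control shRNA and 5.53 with S100A4 shRNA (log2 signal), above 80.8% of the negative controls, and was not called (difference 0.06, limma adjusted p = 0.622). TRAM2, the paralogue reported to set the orientation of TM4SF20, had a difference of 0.33 (limma adjusted p = 0.167) and was not called. The call of KDSR was lost without control array 1 or 3 or S100A4 shRNA array 1 or 3 (limma adjusted p up to 0.0905).

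Tetraspanins, the family closest in shape, moved in both directions. Of 33 measured 4 rose, 3 fell and 26 were not called, 21.2% called beside 11.6% of all genes (6.08% higher and 5.49% lower), with a median difference of 0.03 beside -0.03. By their mean over the arrays, 19 of the 33 lay at or below the 95th percentile of the negative controls, TSPAN7 and TSPAN5 among them. TSPAN7 fell by 1.503 (limma adjusted p = 4.34e-05) and UPK1B, a uroplakin, by 0.76 (0.00422), while TSPAN5 rose by 0.59 (0.0026) and TSPAN3 by 0.40 (0.0181). The largest rise of the list was that of TSPAN5. The count was 3 without S100A4 shRNA replicate 1 or replicate 3, and the call of TSPAN3 was lost without either of these arrays (limma adjusted p up to 0.0654).

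Genes of gut and liver epithelium, where TM4SF4, TM4SF5 and TM4SF20 are best known, were compared last. Of 27 measured 7 rose, 2 fell and 18 were not called (33.3% called beside 11.6% of all genes, median difference -0.05 beside -0.03), and 20 of the 27 lay at or below the 95th percentile of the negative controls. ANPEP, a brush-border aminopeptidase, rose by 1.21 (limma adjusted p = 0.000284), CDH17, an intestinal cadherin, by 1.01 (0.000508) and HNF4G, a nuclear receptor of gut epithelium, by 0.64 (0.00179), while the nuclear receptor NR5A2 fell by 2.34 (1.79e-05). CDH17 (4.69 and 5.70) and HNF4G (4.99 and 5.62) were below that percentile in both groups. The intestinal regulators CDX1 and CDX2 lay at or below the negative control median, and VIL1, SI and FABP1 read 4.29 or less. Markers of other cells in which L6 genes are known were called at 7.69% (endothelial), 6.67% (macrophage and osteoclast) and 20% (fibroblast), beside 11.6% of all genes. Of 13 endothelial markers 1 fell (ESAM, -0.45, limma adjusted p = 0.00539), and all 13 were below the 95th percentile of the negative controls. Of 15 macrophage and osteoclast markers 1 rose, CD68 (1.09, limma adjusted p = 0.00152), a lysosomal protein also made by other cells, and the other 14 were below that percentile. Of 10 fibroblast markers COL1A1 rose (0.64, limma adjusted p = 0.00137) and THY1 fell (-0.31, limma adjusted p = 0.0167), and all 10 were below it. The summed level of a marker list (log2 of summed linear signal) ran from 8.19 to 8.29 on control arrays and 8.05 to 8.12 on S100A4 shRNA arrays for endothelial markers, from 7.75 to 7.87 and 7.89 to 7.93 for fibroblast markers, and from 9.87 to 9.97 and 10.53 to 10.86 for macrophage and osteoclast markers, the list that holds CD68. The part of these markers in the values of the L6 genes was not tested. Of 10 epithelial markers CDH1 (0.97, limma adjusted p = 0.0011) and KRT19 (0.42) rose, and KRT18 (-0.58, limma adjusted p = 0.00478) and KRT8 (-0.44) fell. The calls of THY1, KRT8 and KRT19 were each lost without some array (limma adjusted p up to 0.0741, 0.0929 and 0.0529), control replicate 2 and S100A4 shRNA replicate 3 among them for all 3 genes, control replicate 3 for THY1 and KRT8, S100A4 shRNA replicate 1 for THY1 and control replicate 1 for KRT8.

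**Figure D5:**
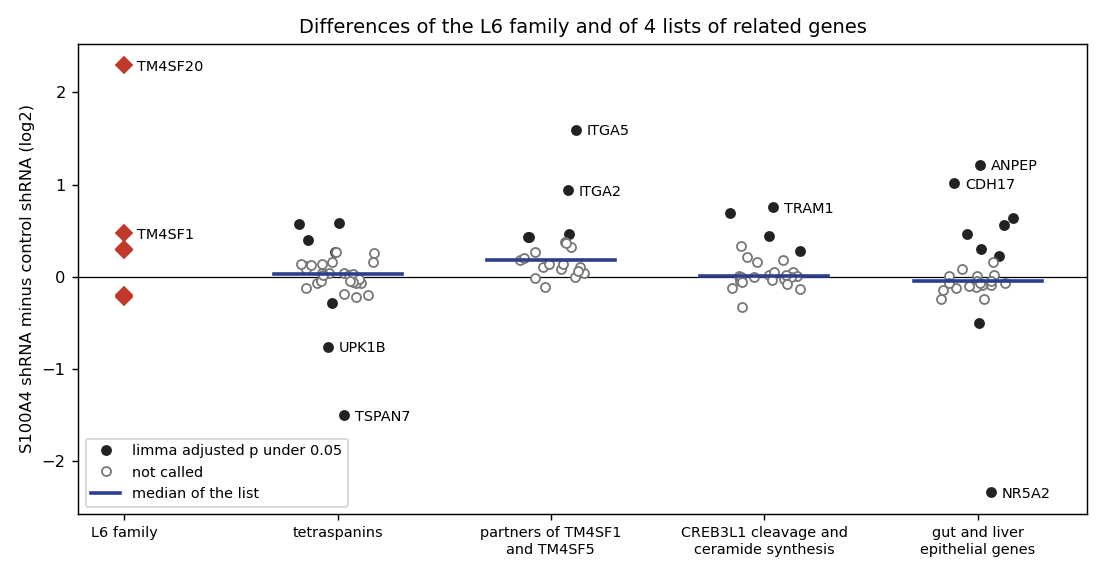
S100A4 shRNA minus control shRNA (log2, vertical axis) for the 6 L6 family genes (red diamonds) and for each measured gene of 4 lists (circles, filled where limma's adjusted p is under 0.05), with the median of each list as a blue bar. The family was chosen by the difference of TM4SF20 (2.29), so the place of TM4SF20 above the lists is not a result. The highest value of the lists is 1.597 for ITGA5, and the list medians lie between -0.05 and 0.19.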

How the data were processed

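Total RNA of 3 A549 samples with control shRNA and 3 with S100A4 shRNA was measured on 1-colour whole-transcript arrays. The authors deposited log2 values for 70523 features. Partek 6.0 is named per the submitters' processing notes, and the background correction, normalization and genome build behind these values are not given in the sources used here. The authors also deposited a table with log2 group means, a ratio and a p-value for each feature. It is a different summary of the arrays, and it is used as an alternative. Across the 25141 named genes, with 1 cluster each, the levels of the 2 sources correlated at r = 0.780 and the differences at 0.785.

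Names came from the authors' table and were updated through RefSeq: 22675 clusters by accession, 2135 by current symbol and 976 by older symbol, while 1044 kept the file's name. For each of 25141 genes the cluster with the highest mean was tested with limma 3.58.1 in R 4.3.3 (lmFit and eBayes, 3 against 3 arrays, no covariate). P-values were adjusted by Benjamini-Hochberg over all genes, with a threshold of 0.05, and none is given for L6 family members. The script was tested on simulated data. No detection calls were used, so 646 negative control probe sets served as the background. The number of arrays limits the precision.

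The members, the gene lists and the tests were chosen with earlier results of these data known. In each list, up to 4 called genes with the smallest p-value were named. For neighbours, the genes beside each member and the called genes were named, or the 2 smallest p-values where none was called. The alternatives were quantile, median and negative-control centring, a filter on dim genes, the authors' table, other cluster rules, other limma settings, a replicate block and leaving out each array. Gene order and the promoter came from RefSeq (GRCh38.p14), and 1 of 6 promoters is printed.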

Additional observations from a re-analysis of the deposited data

Results flagged for a closer look

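A cluster without a gene symbol, called linc-TM4SF4-1 in the file's annotation and not part of the comparisons above, lay higher with S100A4 shRNA. It read 4.86, 4.55 and 4.63 on the control arrays and 4.996, 5.03 and 4.97 on the S100A4 shRNA arrays, a log2 difference of 0.32 (limma SE 0.10) without overlap. It did not pass the threshold over all clusters (limma adjusted p = 0.162), and 68.3% of the negative controls were dimmer. The authors' deposited table gives it a ratio of 1.23. The neighbouring clusters linc-TM4SF4-2 (0.30, limma adjusted p = 0.552) and linc-TM4SF1 (-0.01, adjusted p = 0.973) had overlapping groups.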

How the results depend on the processing

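Every L6 family member and S100A4 kept its direction under all alternatives run, except that TM4SF5 has no value when the dimmer 50% of genes are left out. Leaving out 1 array at a time gave log2 differences of 2.17 to 2.37 for TM4SF20, 0.43 to 0.52 for TM4SF1, 0.25 to 0.33 for TM4SF18, 0.24 to 0.36 for TM4SF4, -0.23 to -0.16 for TM4SF19, -0.27 to -0.19 for TM4SF5 and -1.82 to -1.59 for S100A4. In the authors' deposited table the differences were 1.26 for TM4SF20, 0.37 for TM4SF1, 0.16 for TM4SF4, and -0.13 for TM4SF5 and TM4SF19, and the cause was not tested.

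The number of L6 family members called was 3 as reported, 5 after quantile normalization (TM4SF4 and TM4SF19 added), 4 with the other settings that added TM4SF4 (negative-control centring, the dim filter, the intensity trend, array weights and the block), 2 when all clusters were tested, 1 with the authors' p-values and 2 to 3 with 1 array left out. Over all 25141 genes the counts were 2910 as reported, 3636 after quantile normalization and 3464 with negative-control centring. The dim filter gave 3549 (fewer genes tested), the intensity trend 3008, array weights 3982, the block 2883, all clusters 1180 and the authors' p-values 532. Because this contrast drew attention to the family, nothing is read from the counts of members.

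Of all genes 2910 were called, 1539 to 2583 with 1 array left out (fewer samples) and 532 with the authors' p-values. When all transcript clusters were tested, 1903 clusters were called, a count of clusters and not of genes, and 1180 genes were called by their kept cluster (more features in the adjustment). Without control replicate 3 the count was 1539. Centring on the negative controls gave 2467 higher and 997 lower (71.2% higher), beside 52.5% higher in the values as reported.

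With the authors' p-values 2 tetraspanins, 3 partners of TM4SF1 and TM4SF5, 1 gene around TM4SF20, 5 gut and liver genes, 2 macrophage, 0 fibroblast and 1 epithelial marker and 2 neighbours were called. With all clusters tested the counts were 3 tetraspanins, 3 partners, 2 genes around TM4SF20, 1 fibroblast marker, 2 epithelial markers and 3 neighbours. Leaving out the dimmer 50% of genes gave 9 partners, 5 gut and liver genes and 1 fibroblast marker. Quantile normalization gave 8 partners and 9 neighbours, array weights 9 partners and 8 neighbours, and negative-control centring 10 partners. With 1 array left out there were 3 to 7 tetraspanins, 3 to 7 partners, 3 to 4 genes around TM4SF20, 6 to 7 gut and liver genes, 1 to 2 fibroblast markers, 2 to 4 epithelial markers and 3 to 6 neighbours called. Of 522 comparisons for 33 other named genes 57 lost a call, 3 gained one and 0 reversed.

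Replicate numbers gave no clear pairing of the samples: deviations of same-numbered arrays correlated at 0.08, 0.17 and -0.0087, and not every array correlated best with its own number. The arrays numbered 2 did correlate best with each other (0.17). Weak correlations cannot show that the samples were unpaired. With the number as a replicate block 2883 genes and 8 partners were called. Dim signal limits TM4SF5, TM4SF4 and TM4SF19, which lay within the range of the negative controls.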
